A study of Homo sapiens with 4 samples.

Results

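The HOX cluster genes are the homeobox genes named HOXA, HOXB, HOXC or HOXD followed by a number. All 39 protein-coding genes of the RefSeq table (GRCh38.p14, the assembly of hg38) with such a symbol were taken, out of 19974 protein-coding genes on chromosomes 1 to 22 and X. HOXA on chromosome 7 holds 11 of them, HOXB on chromosome 17 holds 10, HOXC on chromosome 12 holds 9 and HOXD on chromosome 2 holds 9. HOX proteins are transcription factors that set the identity of body segments along the head-to-tail axis of the embryo. Within a cluster the genes are numbered along the chromosome, and low-numbered genes are used early and towards the head while high-numbered genes are used late and towards the tail and the limb tips. Polycomb proteins keep the clusters silent in cells that do not use them, trithorax proteins keep them active, and the late HOXA genes pattern the Müllerian duct, from which the uterus develops.

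The histone mark γH2AX, the phosphorylated form of H2A.X that spreads over chromatin next to broken DNA, was followed by ChIP-seq in SK-UT-1, an established line from a uterine leiomyosarcoma (a smooth muscle cancer of the uterus). The 4 libraries came from cells given 1 µM OTS186935, which blocks SUV39H2 (an enzyme that methylates histone H3), 0.5 µM doxorubicin, which traps topoisomerase II on DNA, both drugs together at these doses (the combination), and 0.1% DMSO as the vehicle. The title of the series speaks of a poly(ADP-ribose) polymerase inhibitor, whereas its labels and design text give doxorubicin for these libraries, and the labels are followed here. Each condition had 1 library, so no difference between conditions was tested and none has a replicate check. A single tumour line stands for the disease here, the treatment time was not given in the sources used here, and peak lists hold no expression, so neither HOX transcription nor the cell type on the label could be checked. In these bulk libraries, fewer cells carrying the mark and less mark per cell cannot be told apart.

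A HOX window is a gene's annotated extent plus 5 kb on either side, and the windows of the 39 genes joined to 0.459 Mb. Rows of a list that overlapped or touched were counted once, as 1 distinct peak. Neighbouring windows overlap, so 1 peak can count for several members, and members are not independent. The fold of a peak is the deposited enrichment over the local background and ranks peaks within 1 list only. Intervals in the text are exact 95% intervals, Poisson for densities and Clopper-Pearson for shares, and cover counting error only. The lists were of unequal length, with 59710, 47495 and 29213 distinct peaks for OTS186935, doxorubicin and the combination, against 72858 for DMSO.

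Promoter sequence was at hand for 20 of the 39 genes, as 26 distinct RefSeq windows of 300 bp that run from 250 bp before to 50 bp after a transcription start. OTS186935 peaks overlapped 5 of these 26 windows, doxorubicin peaks 1, combination peaks 0 and DMSO peaks 4. Among 21983 such windows of all protein-coding genes the shares were 9.99% with OTS186935, 6.84% with doxorubicin, 5.13% with the combination and 14.5% with DMSO, against HOX shares of 19.2%, 3.85%, 0% and 15.4%. With 26 windows, counts of 0 to 5 leave wide intervals on these shares. The 5 promoters reached by a peak are printed because they show which bases lay under γH2AX peaks. Each reads 5′ to 3′ on the gene's strand, with the bases under a peak of any library in capitals.
HOXA4: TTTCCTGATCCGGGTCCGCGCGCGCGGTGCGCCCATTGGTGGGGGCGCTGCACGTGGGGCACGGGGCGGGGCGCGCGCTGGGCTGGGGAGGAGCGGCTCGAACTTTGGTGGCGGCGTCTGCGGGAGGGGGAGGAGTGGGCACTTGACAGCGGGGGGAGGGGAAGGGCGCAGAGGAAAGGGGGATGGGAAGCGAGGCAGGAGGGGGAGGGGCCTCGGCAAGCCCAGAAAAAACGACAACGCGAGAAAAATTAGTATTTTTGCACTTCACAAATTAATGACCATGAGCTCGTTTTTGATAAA
HOXB1: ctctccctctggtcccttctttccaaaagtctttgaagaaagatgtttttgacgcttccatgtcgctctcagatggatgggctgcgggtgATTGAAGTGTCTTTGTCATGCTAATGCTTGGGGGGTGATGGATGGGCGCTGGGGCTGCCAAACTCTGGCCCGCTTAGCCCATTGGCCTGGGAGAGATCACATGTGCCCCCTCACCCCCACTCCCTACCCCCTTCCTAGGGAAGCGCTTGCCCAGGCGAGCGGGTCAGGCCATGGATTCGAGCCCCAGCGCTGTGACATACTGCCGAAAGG
HOXD10: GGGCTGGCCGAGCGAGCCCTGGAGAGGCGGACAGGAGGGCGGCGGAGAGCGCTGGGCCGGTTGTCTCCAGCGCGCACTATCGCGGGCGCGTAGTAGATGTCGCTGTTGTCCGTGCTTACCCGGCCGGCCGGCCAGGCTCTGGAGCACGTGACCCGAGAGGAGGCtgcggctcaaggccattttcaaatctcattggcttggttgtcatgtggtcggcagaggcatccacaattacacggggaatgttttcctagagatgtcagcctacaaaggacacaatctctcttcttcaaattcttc
HOXD12: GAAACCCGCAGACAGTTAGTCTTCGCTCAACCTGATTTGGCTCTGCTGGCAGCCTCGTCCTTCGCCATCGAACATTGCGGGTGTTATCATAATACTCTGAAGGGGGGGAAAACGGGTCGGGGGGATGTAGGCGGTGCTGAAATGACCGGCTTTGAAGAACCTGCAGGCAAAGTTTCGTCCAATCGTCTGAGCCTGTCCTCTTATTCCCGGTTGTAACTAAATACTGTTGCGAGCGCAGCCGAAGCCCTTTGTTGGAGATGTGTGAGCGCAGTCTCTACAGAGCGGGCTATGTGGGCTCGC
HOXD13: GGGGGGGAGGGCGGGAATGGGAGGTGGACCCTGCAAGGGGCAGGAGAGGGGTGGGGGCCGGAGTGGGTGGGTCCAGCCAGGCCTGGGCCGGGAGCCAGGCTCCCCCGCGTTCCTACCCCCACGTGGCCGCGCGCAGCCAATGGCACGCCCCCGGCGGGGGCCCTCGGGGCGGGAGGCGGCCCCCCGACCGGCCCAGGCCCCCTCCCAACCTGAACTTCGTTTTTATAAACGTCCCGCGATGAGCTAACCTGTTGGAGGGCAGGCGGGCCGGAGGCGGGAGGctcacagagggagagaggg
The HOXA4 window (chr7:27130708-27131007, minus strand) lay wholly under 1 peak in the OTS186935 library and 1 in the DMSO library. At HOXB1 (chr17:48530962-48531261, minus strand), a hindbrain gene, the OTS186935 peak covered 210 bases and the DMSO peak 48 bases. At HOXD10 (chr2:176116528-176116827, plus strand) peaks covered 164 bases with OTS186935, 33 with doxorubicin and 152 with DMSO. HOXD12 (chr2:176099545-176099844, plus strand) was covered over 300 bases with OTS186935 and 65 with DMSO, and HOXD13 (chr2:176092471-176092770, plus strand), a gene of digits and the urogenital tract, over 281 bases with OTS186935. No combination peak touched any of the 26 HOX promoters, and the doxorubicin peak at HOXD10 reached only its upstream edge. The homeodomain core TAAT, or ATTA on the other strand, occurred in 4 of the 5 promoters with a peak and in 16 of the 21 without, that is in 76.9% of the 26 HOX windows, against 42.7% of all protein-coding promoters of the same length. The median GC content was 58% over the 26 HOX windows and 62.3% over all promoters.

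γH2AX peaks were denser over the HOX genes than over genes in general in every library. The HOX windows held 48 distinct peaks with OTS186935, 43 with doxorubicin, 21 with the combination and 54 with DMSO. Their density was 105 peaks per Mb (77.1 to 139) with OTS186935, 93.6 (67.8 to 126) with doxorubicin, 45.7 (28.3 to 69.9) with the combination and 118 (88.3 to 153) with DMSO. The windows of all protein-coding genes, built the same way, held 26.9, 21.1, 12.8 and 33.3 peaks per Mb in the same order of libraries. The HOX density was thus 3.88, 4.44, 3.56 and 3.53 times that of all gene windows, and none of the HOX intervals reached the density of all gene windows. These windows differ in make-up, because HOX genes had a median length of 3.79 kb and all protein-coding genes one of 24.2 kb. Windows of short genes hold a larger part of gene ends and surroundings, and genes of matched length were not compared. By gene the contrast was smaller: with DMSO, 51.3% of the members had a peak within 1 kb of a gene end, against 38.7% of all genes.

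**Figure D1:**
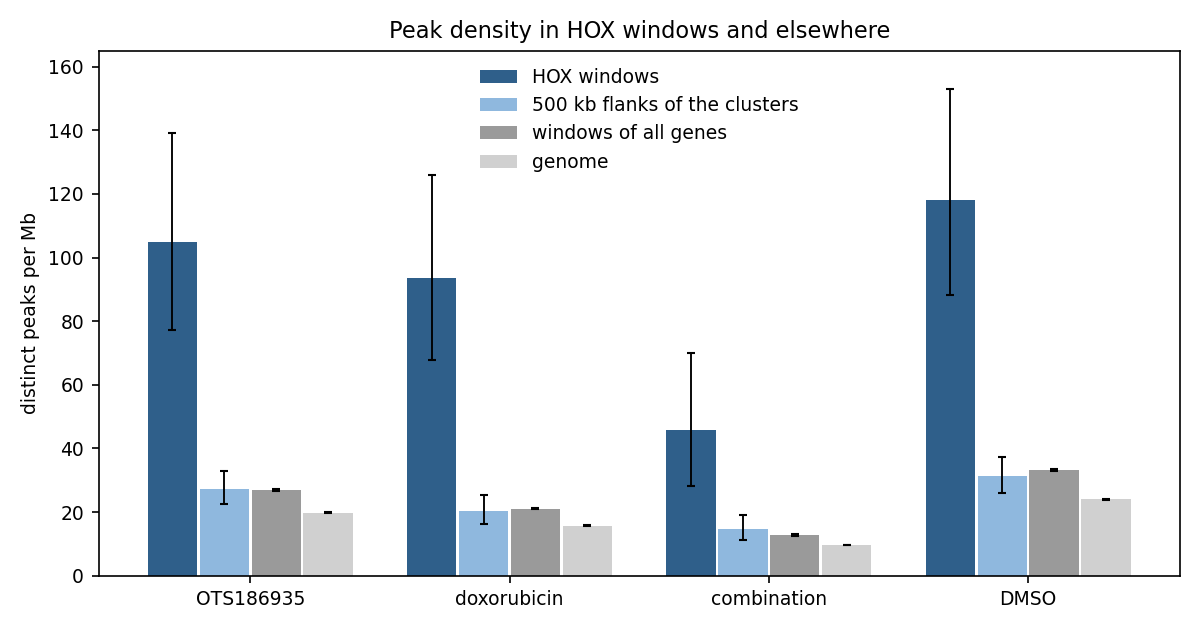
Distinct γH2AX peaks per Mb in the HOX windows, in 500 kb on either side of each cluster, in the windows of all protein-coding genes and in the whole genome, for each of the 4 libraries (1 each). Bars start at 0, whiskers are exact 95% Poisson intervals, and the HOX bars stand above the other 3 bars of their library in each case.

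Over all clusters, peaks were sparser in the flanks than in the HOX windows. In the 500 kb on either side of each cluster, 27.2, 20.2, 14.8 and 31.2 peaks per Mb were found with OTS186935, doxorubicin, the combination and DMSO, close to the densities of all gene windows. The contrast was widest at HOXD, whose windows held 121 peaks per Mb with OTS186935, 121 with doxorubicin, 60.6 with the combination and 121 with DMSO. The HOXD flanks held 12, 7, 7 and 13 peaks per Mb. At HOXB the contrast was smaller, and the windows held 74.9 (34.2 to 142), 91.5 (45.7 to 164), 58.2 (23.4 to 120) and 108 (57.6 to 185) peaks per Mb. The HOXB flanks held 40 (28.6 to 54.5), 31, 20 (12.2 to 30.9) and 38. Window and flank intervals of HOXB thus overlapped with OTS186935 and with the combination. All gene windows of chromosome 17 held 43.1, 30.9, 19 and 54.2 peaks per Mb. The HOXB interval contained that value with OTS186935 and lay above it with doxorubicin, the combination and DMSO. HOXA windows held 120, 85.4, 42.7 (13.9 to 99.6) and 137 peaks per Mb and the flanks 18, 13, 12 (6.2 to 21) and 22. The HOXA intervals overlapped in the combination library. HOXC windows held 106 (56.3 to 181), 81.3 (39 to 149), 24.4 (5.03 to 71.3) and 106 (56.3 to 181) peaks per Mb. The HOXC flanks held 39 (27.7 to 53.3), 30 (20.2 to 42.8), 20 (12.2 to 30.9) and 52 (38.8 to 68.2). Window and flank intervals of HOXC thus overlapped with doxorubicin, the combination and DMSO. In the combination library, with 3 peaks in the HOXC windows, HOXC was not distinguishable from its flanks. That combination interval also contained the 13.5 peaks per Mb of all gene windows on chromosome 12. The flanks include sequence between genes. Gene windows within the HOXC flanks held 48.8 (32.4 to 70.6), 33.1 (19.9 to 51.7), 19.2 (9.57 to 34.3) and 57.5 (39.6 to 80.8) peaks per Mb. These intervals overlapped those of the HOXC windows in every library. Over all clusters, gene windows within the flanks held 31.3, 21.9, 13.6 and 33.4 peaks per Mb, below the HOX interval of each library. Peaks covered 5.94%, 4.54%, 2.34% and 6.98% of the HOX windows.

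The HOX peaks stood on a raised local background. The peak caller sets each summit against the larger of a genome-wide level, its floor, and the fragment level around the peak. Without an input, fragments of neighbouring peaks also count in that level, and any use of an input was not given in the sources used here. Worked out from each row's deposited fold and p-value, the median background under HOX peaks was 5.0 times the floor of the list with OTS186935, 4.26 times with doxorubicin, 3.74 times with the combination and 5.16 times with DMSO. Over all peaks of a list the median was 1.63, 1.63, 1.73 and 1.57 times the floor, and over the peaks in the 500 kb flanks 1.39, 1.37, 1.66 and 1.39 times. No HOX peak in any library sat at the floor itself, although 31.1%, 30.3%, 16.1% and 33.1% of all peaks did, and the lowest HOX value was 1.02 times the floor, with OTS186935. That lowest value, beyond the outer end of HOXD1, was close to the genome-wide level, and the HOX medians lay above those of the flanking peaks in each library.

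The HOX peaks were taller in fragments but not in fold. The median summit of a HOX peak held 11, 10, 9 and 12 fragments with OTS186935, doxorubicin, the combination and DMSO, against 7, 7, 7 and 8 over all peaks. The median fold of the HOX peaks was 3.75, 3.9, 3.68 and 3.78, against 4.3, 4.1, 4.2 and 4.28 over all peaks. A −log10 q of 5 or more was reached by 7 HOX peaks with OTS186935, 4 with doxorubicin, 0 with the combination and 11 with DMSO, which is 14.6%, 9.3%, 0% and 20.4% of the HOX peaks against 17.7%, 10%, 8.47% and 25.6% of all peaks. The source of the raised background over the HOX clusters was not tested, and no input library was analysed here.

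**Figure D2:**
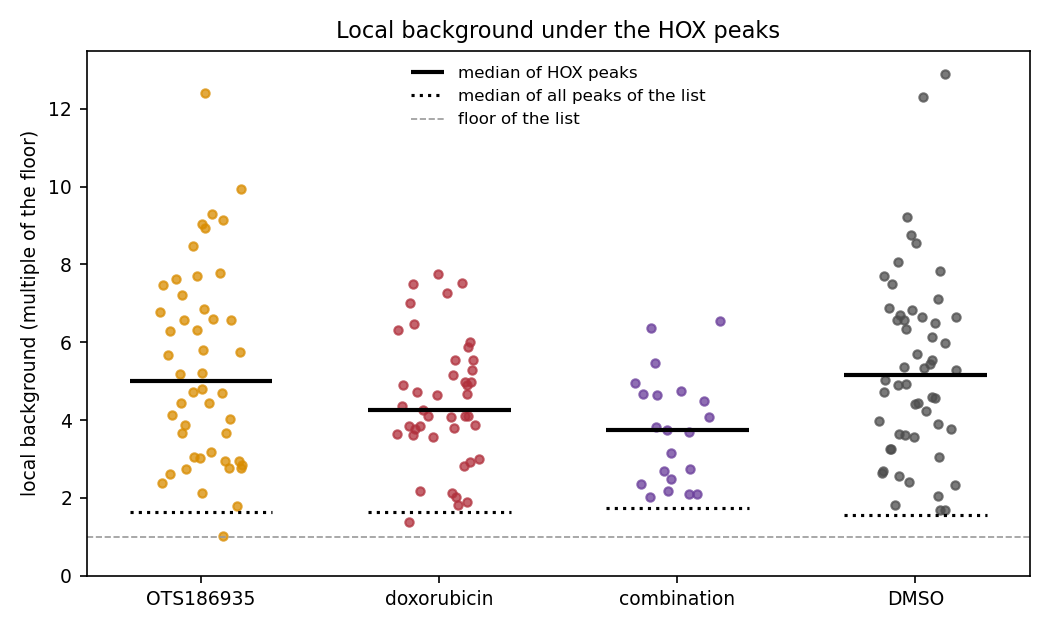
Local background under each HOX peak, as a multiple of the floor of its own list, for the 4 libraries; points are peaks, solid bars their medians, and dotted bars the medians over all peaks of the list. The HOX medians of 5.0 (OTS186935), 4.26 (doxorubicin), 3.74 (combination) and 5.16 (DMSO) lie above the dotted bars, and no point lies under the floor.

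Most HOX genes had a peak in their window in the single-drug and vehicle libraries, and about as many as not in the combination library. At least 1 peak lay in the window of 33 of the 39 genes with OTS186935, 32 with doxorubicin, 19 with the combination and 33 with DMSO, or 84.6%, 82.1%, 48.7% and 84.6%. Among all protein-coding genes the shares were 71.7%, 65.1%, 50.5% and 78.3%. The member shares were thus near the background in the combination and DMSO libraries, for genes whose median length is 3.79 kb against 24.2 kb for all protein-coding genes. Peaks within 1 kb of either end of the gene were found at 15, 17, 8 and 20 members, or 38.5%, 43.6%, 20.5% and 51.3%, against 28.7%, 21.9%, 14.8% and 38.7% of all genes.

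Across the libraries, 16 HOX genes (41%) had a window peak in all 4, against 39.7% of all protein-coding genes. Among them were HOXA3, HOXA13, HOXB1, HOXB2, HOXB3, HOXB8, HOXC4, HOXC5, HOXC6, HOXC12, HOXD1, HOXD3, HOXD11, HOXD12 and HOXD13. HOXA6 and HOXD8, from the middle of their clusters, had no peak in any library, which is 5.13% of the members against 13.3% of all genes. A peak at a gene end in all 4 libraries was found for 5 members, HOXB1, HOXB2, HOXC6, HOXD3 and HOXD12, which is 12.8% against 7.59% of all genes. In at least 2 libraries it was found for 19 members, or 48.7% against 29.7% of all genes, and in none for 14 members, or 35.9% against 50.1%.

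**Figure D3:**
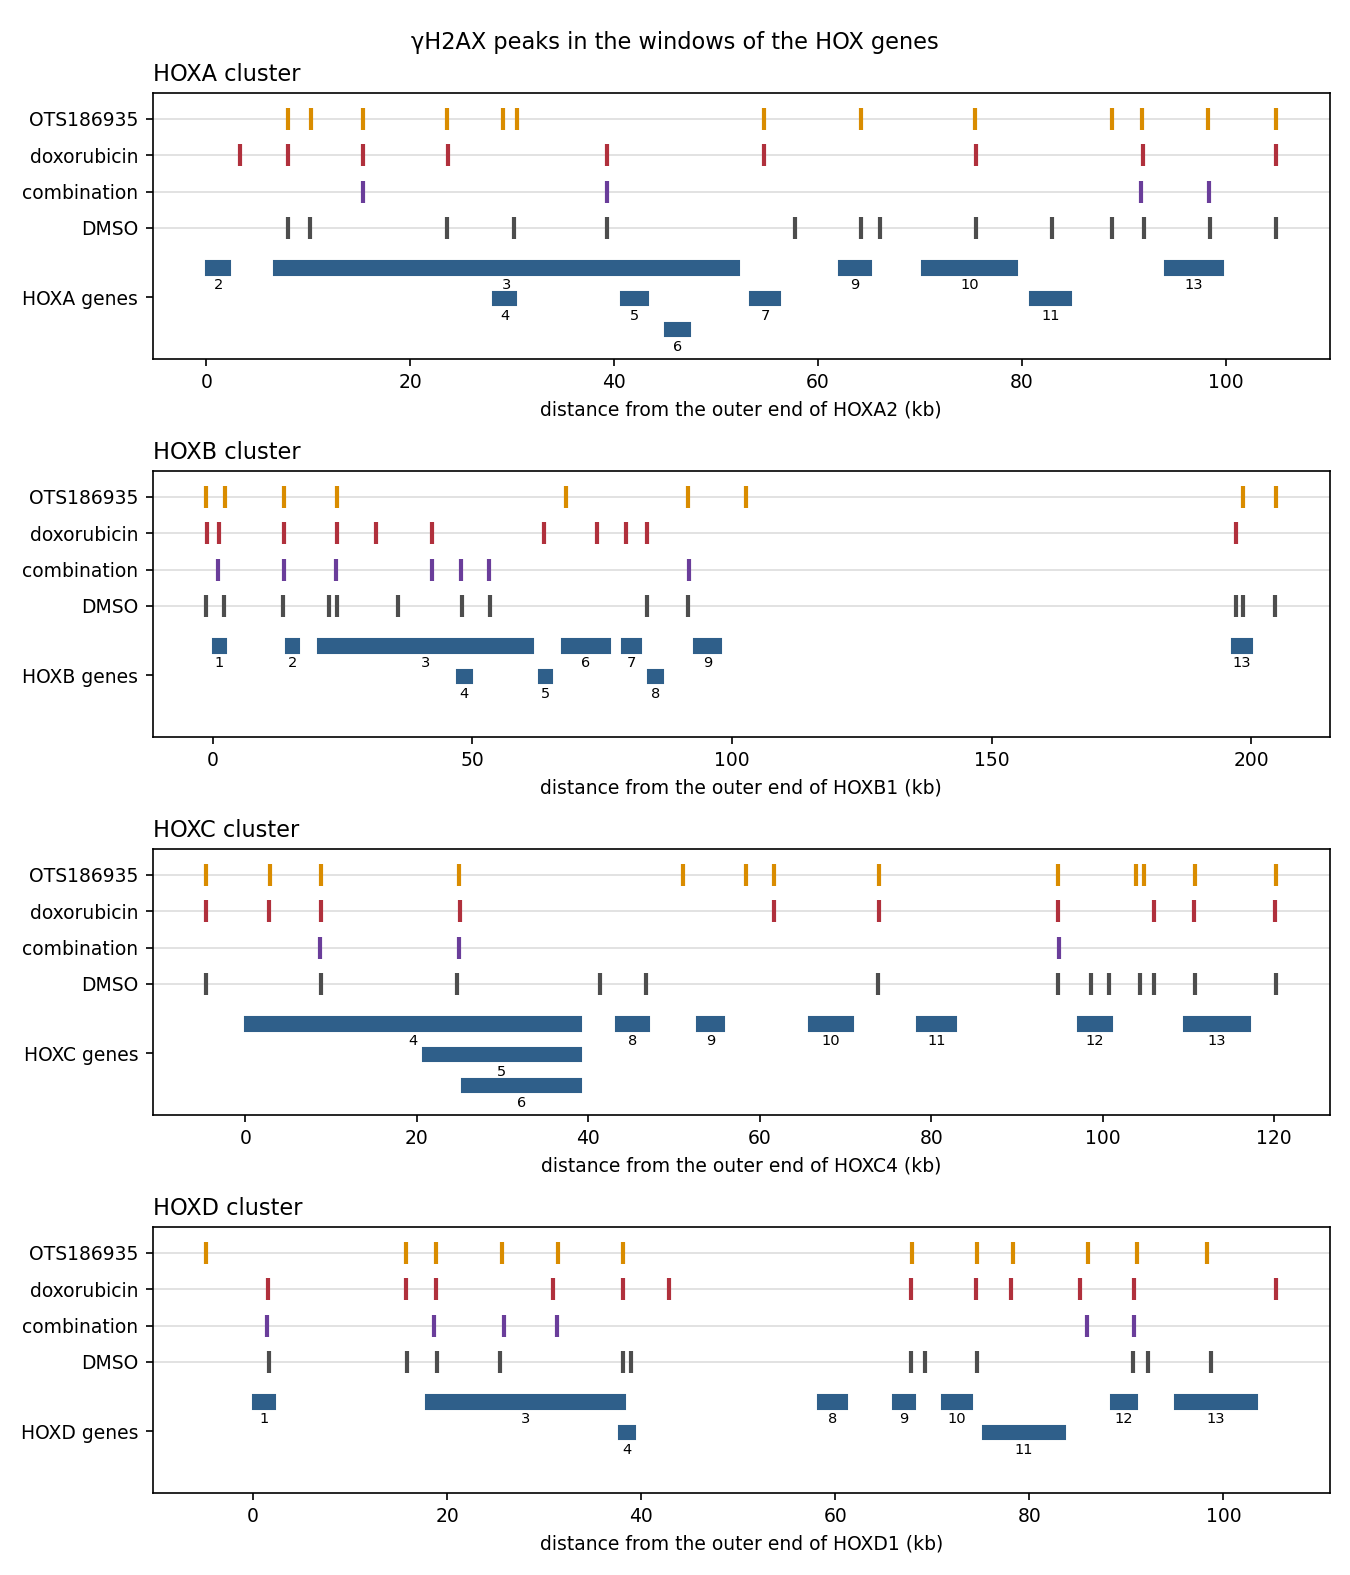
Position of the distinct peaks (vertical ticks) in the windows of 38 HOX genes in the 4 libraries, drawn above the annotated extents of the genes (blue boxes, with their numbers), in kb from the outer end of the lowest-numbered gene drawn in each cluster. Ticks mark peak centres and number 47 with OTS186935, 42 with doxorubicin, 20 with the combination and 52 with DMSO.

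In HOXA the windows held 14 peaks with OTS186935, 10 with doxorubicin, 5 with the combination and 16 with DMSO. HOXA3, a gene of the pharyngeal arches whose annotated extent of 45.6 kb spans HOXA4, HOXA5 and HOXA6, held 7, 6, 2 and 5 of them. Its highest peak in the doxorubicin library (5.73-fold, chr7:27115497-27115885) was also called with OTS186935 at 4.62-fold and the combination at 5.17-fold, and not with DMSO. This was the highest HOXA peak of the doxorubicin and the combination library. The highest of the OTS186935 library lay inside HOXA3, in the window of HOXA4 (chr7:27123337-27124590) at 5.91-fold, and was 4.57-fold with doxorubicin and 4.55-fold with DMSO, with no peak in the combination. At the HOXA3 end nearest HOXA2 (chr7:27107983-27108740) the folds were 3.35 with OTS186935, 3.48 with doxorubicin and 2.84 with DMSO, where the peak began over 1 kb from the gene end.

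HOXA4, with peaks at both ends with OTS186935, had folds of 4.97 (chr7:27129270-27129609) and 2.86 (chr7:27129934-27131214) in that library and 4.3 at the second position with DMSO. HOXA9, which patterns the oviduct in mice, had a peak at chr7:27164394-27164830 of 2.7-fold with OTS186935 and 2.89-fold with DMSO, and none in the other two libraries. HOXA10 and HOXA11, the uterine patterning genes, had no gene-end peak in any library and no window peak in the combination. In the window of HOXA10 the highest folds were 3.8 with OTS186935, 3.78 with doxorubicin and 3.79 with DMSO. HOXA11 had window peaks with OTS186935 (2.38-fold) and DMSO (highest 3.82-fold).

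HOXA13, a gene of the limb tips and the lower genital tract at the end of the cluster, held 4 peaks with OTS186935, 2 with doxorubicin, 2 with the combination and 4 with DMSO. One position beside the gene (chr7:27191902-27192762) was called in all 4 libraries, at 3.49-fold, 3.9-fold, 3.68-fold and 3.27-fold. The highest HOXA peak of the DMSO library was at the outer edge of its window (chr7:27204870-27205635), at 5.66-fold, with 4.88-fold for OTS186935 and 4.21-fold for doxorubicin.

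HOXB windows held 9 peaks with OTS186935, 11 with doxorubicin, 7 with the combination and 13 with DMSO. HOXB1 had a gene-end peak in each library, spread over 3 positions of which none was called in all 4. Its promoter-side peak (chr17:48530311-48531171) was the highest HOXB peak of the DMSO library, at 6.18-fold with 24 summit fragments, and had 3.7-fold and 12 fragments with OTS186935. On its other side the folds were 3.33 with OTS186935, 2.72 with doxorubicin and 3.77 with DMSO, while a position inside the gene (chr17:48529414-48529774) was called with doxorubicin at 2.85-fold and the combination at 3.0-fold only. HOXB2, a neighbour that also acts in the hindbrain, had 1 peak at the same gene end in all 4 libraries (chr17:48541613-48542618), at 4.42-fold, 3.8-fold, 3.15-fold and 4.14-fold.

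HOXB3 had a position in all 4 libraries as well (chr17:48552098-48552669), with folds of 3.47, 4.96, 3.08 and 4.23. HOXB4, known for its action in blood stem cells, lies inside the HOXB3 extent and had a gene-end peak in the combination (5.07-fold, the highest HOXB peak of that library) and in DMSO (3.41-fold), with none in either single-drug library. HOXB7 and HOXB8 shared a position (chr17:48611840-48612351) with 4.26-fold for doxorubicin and 3.8-fold for DMSO, and HOXB7 had a second doxorubicin peak of 4.46-fold. The position between HOXB8 and HOXB9 (chr17:48619777-48620360) had 5.43-fold with OTS186935, 4.73-fold with the combination and 2.96-fold with DMSO, and no peak with doxorubicin. Of the 11 doxorubicin peaks of HOXB, 4 were overlapped by a combination peak.

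HOXB13, a prostate gene that stands apart from the rest of the cluster, had its main peak inside the gene (chr17:48725358-48725809) with doxorubicin at 5.39-fold and with DMSO at 5.51-fold. A second peak in the gene had 4.48-fold with OTS186935 and 4.33-fold with DMSO, and the combination had none in the window. Between the HOXB9 and HOXB13 windows lie 88.4 kb without a HOX window, which held 4, 2, 1 and 6 peaks with OTS186935, doxorubicin, the combination and DMSO.

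HOXC had 13 peaks with OTS186935, 10 with doxorubicin, 3 with the combination and 13 with DMSO. The highest HOX peaks of every library lay in the window of HOXC4, whose annotated extent covers those of HOXC5 and HOXC6. At chr12:54046734-54047777, inside HOXC4, the fold was 5.54 with OTS186935, 8.07 with doxorubicin, 5.57 with the combination and 5.9 with DMSO, the highest HOX peak of the doxorubicin and the combination library. Beyond HOXC4 (chr12:54060293-54060866) it was 7.59 with OTS186935, 6.9 with doxorubicin and 9.08 with DMSO, and no combination peak was called. That last position lay near the window's edge, on a background of only 1.68 times the floor with DMSO.

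At the end of HOXC6 (chr12:54030854-54031743), also inside HOXC4 and HOXC5, the folds were 2.77 with OTS186935, 2.6 with doxorubicin, 4.44 with the combination and 3.28 with DMSO. No other HOXC gene had peaks at its ends in all 4 libraries. HOXC13, a gene of hair and nail, had 4.28-fold, 4.41-fold and 3.64-fold with OTS186935, doxorubicin and DMSO at chr12:53944851-53945647, and outside the gene (chr12:53935590-53936082) 5.16-fold, 4.15-fold and 5.72-fold. The combination had no peak in the HOXC13 window, nor in those of HOXC8, HOXC9, HOXC10 and HOXC11. Its remaining HOXC peak lay near HOXC12 (chr12:53960745-53961800) at 3.48-fold, against 4.49-fold with DMSO at a position called in all 4 libraries.

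HOXD windows held 12 peaks with OTS186935, 12 with doxorubicin, 6 with the combination and 12 with DMSO. HOXD3 carried 5, 5, 3 and 5 of them. At its end nearest HOXD1 (chr2:176171480-176172526) the folds were 4.81 with OTS186935, 4.62 with doxorubicin, 3.42 with the combination and 4.76 with DMSO. The highest HOXD peak of the DMSO library, also in HOXD3 (chr2:176164807-176165703), had 4.61-fold with OTS186935, 4.49-fold with the combination and 5.82-fold with DMSO. HOXD4, which shares its other end with HOXD3, had 2.89-fold, 3.44-fold and 3.23-fold with OTS186935, doxorubicin and DMSO (chr2:176152430-176153115). HOXD1 had a gene-end peak of 3.92-fold with doxorubicin, 4.48-fold with the combination and 5.56-fold with DMSO, and none with OTS186935, which had a peak of 4.27-fold on the far side of the window.

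The windows of HOXD9 to HOXD13, which pattern the limb, held peaks of 2.68-fold to 4.98-fold. HOXD12 had a peak within 1 kb of its start in all 4 libraries (chr2:176099418-176100667), with folds of 3.33 with OTS186935, 4.98 with doxorubicin, 4.62 with the combination and 3.15 with DMSO, and the doxorubicin and combination values were the highest HOXD folds of their libraries. HOXD9 had 4.44-fold, 4.62-fold and 3.5-fold with OTS186935, doxorubicin and DMSO at chr2:176122369-176123591. Between HOXD10 and HOXD11 (chr2:176115967-176116691) the folds were 3.31, 3.41 and 3.09 in those libraries, and the combination had no peak at either position. Inside HOXD11 (chr2:176112394-176112902) a further peak had 4.79-fold with OTS186935 and 3.31-fold with doxorubicin. The promoter-side peak of HOXD13 (chr2:176091869-176092751) had 3.61-fold with OTS186935 and 2.7-fold with DMSO, in which it stopped short of the promoter window.

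**Figure D4:**
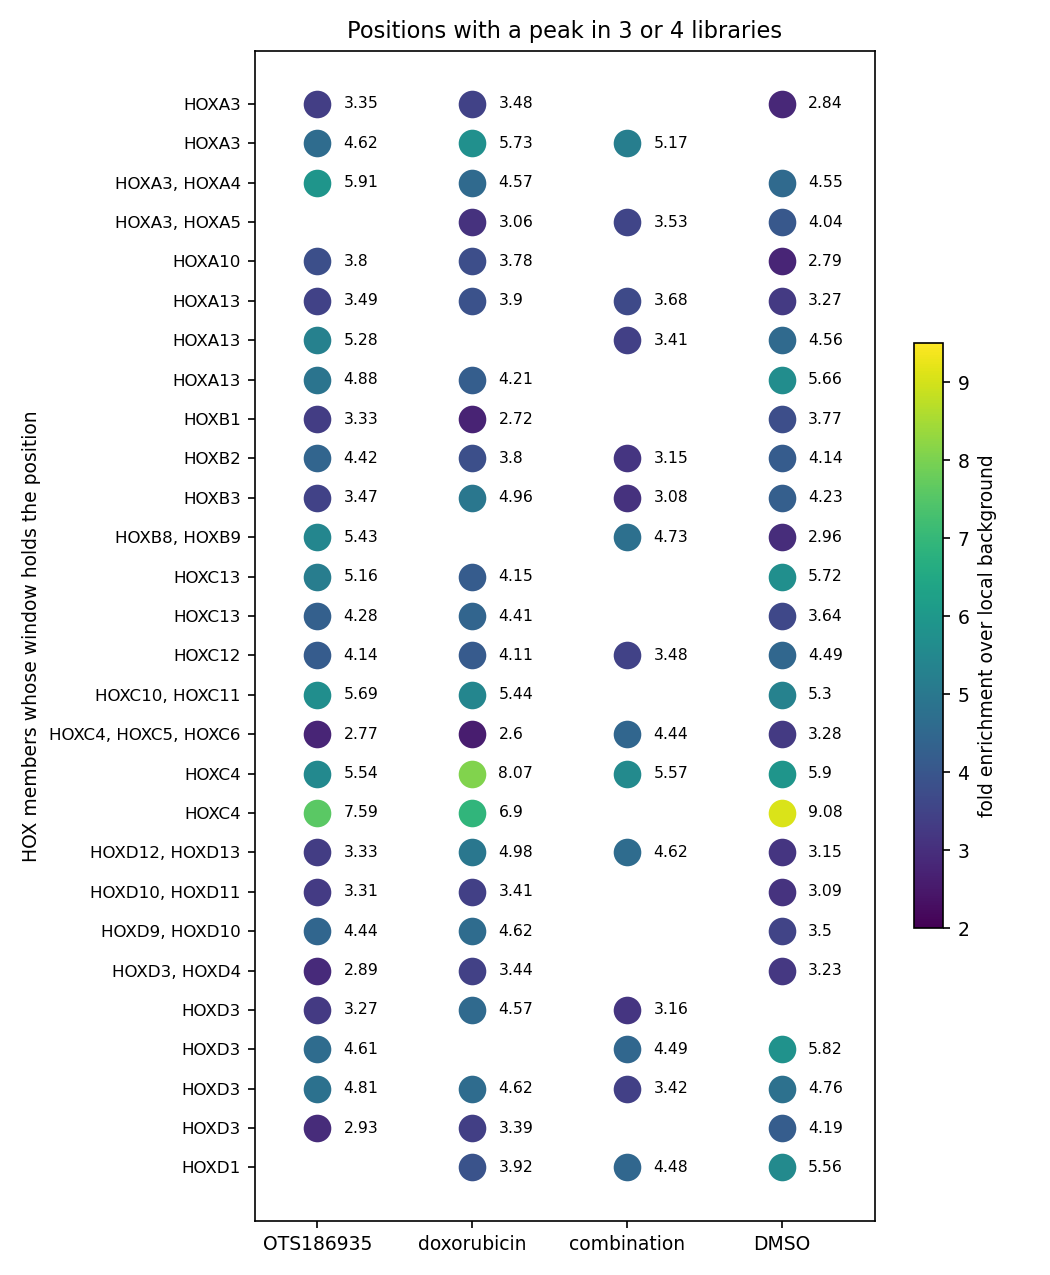
Fold enrichment over the local background at 28 of the 29 HOX positions with a peak in 3 or 4 libraries, in order of genomic position within each cluster; colour and number give the fold, and a missing dot means that no peak was called. Of the 20 positions with 3 libraries, 13 lack the combination, against 2 that lack OTS186935, 3 that lack doxorubicin and 2 that lack DMSO. The combination list is the shortest, with 29213 distinct peaks against 72858 for DMSO. The same shares were not counted over the genome, so these counts are not shown to be particular to HOX positions.

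Joined over the libraries, the HOX peaks formed 77 positions. A single library called 27 of them (35.1%), and 2, 3 and 4 libraries called 21 (27.3%), 20 (26%) and 9 (11.7%). Over the genome, 58.4% of 123983 joined positions had 1 library and 7.36% had all 4. Every one of the 21 HOX positions with a combination peak also had a peak in another library, and 16 had one in DMSO. Of all combination peaks, 59.3% were overlapped by a DMSO peak. The share with a peak in any other library was not counted over the genome, so the count of 21 is not shown to be particular to HOX positions.

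Set against DMSO, the combination library had 21 HOX peaks to 54, a ratio of 0.389, while the genome-wide ratio was 0.401 and the ratio in the 500 kb flanks 0.472. With OTS186935 the ratio to DMSO was 0.889 over the HOX windows and 0.872 in the flanks, and with doxorubicin 0.796 and 0.648. The HOX ratio of the combination thus lay near that of its whole list, and its ratio to doxorubicin was 0.488 over the HOX windows and 0.615 over the genome. When all 4 lists were cut to their 29213 peaks of highest −log10 p, the HOX windows held 22 peaks with OTS186935, 27 with doxorubicin, 21 with the combination and 19 with DMSO. The order of the conditions thus depended on list length, while the HOX density stayed at 3.72, 4.54, 3.56 and 3.15 times that of all gene windows.

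By member, 0 HOX genes had a window peak in the combination and none in DMSO (2.58% of all genes), and 14 had one in DMSO and none in the combination (30.3% of all genes). These 14 (35.9% of the members) were HOXA4, HOXA7, HOXA9, HOXA10, HOXA11, HOXB7, HOXB13, HOXC8, HOXC10, HOXC11, HOXC13, HOXD4, HOXD9 and HOXD10. The 3 genes with OTS186935 and without DMSO (5.4% of all genes) were HOXB5, HOXB6 and HOXC9, and the 3 with DMSO and without OTS186935 (11.9%) were HOXA5, HOXB4 and HOXB7. The 3 genes with doxorubicin and without DMSO were HOXA2, HOXB5 and HOXB6 (4.65% of all genes), and 4 had a peak in DMSO alone of the pair (17.8%), namely HOXA9, HOXA11, HOXB9 and HOXC8. Against single drugs, the combination lacked a peak at 14 genes that had one with doxorubicin (22.1% of all genes) and at 16 that had one with OTS186935 (25.9%), and had one at 1 (7.47%) and 2 (4.69%) genes where the single drug had none. At gene ends, 12 members had a DMSO peak and no combination peak (26.6% of all genes) and 0 the reverse (2.57%). OTS186935 had a gene-end peak and DMSO none at 3 members (6.86% of all genes), with 8 the reverse (16.9%), and for doxorubicin these were 4 (4.71%) and 7 (21.6%). Set against doxorubicin, the combination alone had one at 2 members (5.45%) and doxorubicin alone at 11 (12.6%), and against OTS186935 the counts were 2 (3.93%) and 9 (17.9%).

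Peaks over the HOX genes recurred at the same place somewhat more often than peaks in general. OTS186935 peaks overlapped 34 of the 54 DMSO HOX peaks, or 63% (48.7 to 75.7), against 44.4% of all DMSO peaks. Doxorubicin peaks overlapped 27, or 50% (36.1 to 63.9), against 35.1%. Combination peaks overlapped 16, or 29.6% (18 to 43.6), against 23.6%. The intervals for OTS186935 and doxorubicin lie above the share over all peaks, and that for the combination contains it. For doxorubicin the lower limit is close to the share over all peaks, and the HOX share ran from 27.3% to 63.2% over the alternative settings. HOX peaks also lay more densely and had more summit fragments, with DMSO a median of 12 against 8 over all peaks. Whether overlap differs from that of peaks of like density and height was not tested. Combination peaks overlapped 15 of 43 doxorubicin HOX peaks, or 34.9% (21 to 50.9), against 27.3% of all, and 15 of 48 OTS186935 HOX peaks, or 31.2% (18.7 to 46.3), against 25.7%. Counted from the other list, 16 of the 21 combination HOX peaks had a DMSO peak, or 76.2% (59.3% over all combination peaks), 15 had a doxorubicin peak, or 71.4% (44.6%), and 15 had an OTS186935 peak, or 71.4% (52.8%). A DMSO peak overlapped 35 of 48 OTS186935 HOX peaks, or 72.9% (54.3% over all), and 27 of 43 doxorubicin HOX peaks, or 62.8% (54.1%).

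The DMSO HOX peaks overlapped in the combination were somewhat higher in fold but not in fragments. The 16 overlapped had a median of 4.28-fold and 12 summit fragments, and the 38 not overlapped 3.63-fold and 12 fragments. Over all DMSO peaks the medians were 5.0-fold and 10 fragments for those overlapped and 4.13-fold and 7 fragments for the others. A HOX peak absent from the combination thus had, at the median, as many summit fragments as one that was present.

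Position along the clusters was described by paralogue group, the number in the gene name, which pairs the same gene across clusters. The posterior genes, numbers 9 to 13, held the most peaks in DMSO and the fewest in the combination with windows of 5 kb. Their windows held 25 peaks with OTS186935, 16 with doxorubicin, 6 with the combination and 27 with DMSO, or 128 (83.1 to 190), 82.2 (47 to 133), 30.8 (11.3 to 67.1) and 139 (91.4 to 202) per Mb. All 16 posterior genes had a window peak with OTS186935, against 12 with doxorubicin, 6 with the combination and 15 with DMSO. The anterior genes, numbers 1 to 3, held 18, 20, 13 and 21 peaks, and 7, 8, 7 and 7 of the 8 had a window peak. The central genes, numbers 4 to 8, held 12, 14, 7 and 15 peaks, at 10, 12, 6 and 11 of the 15 genes. For comparison, 71.7%, 65.1%, 50.5% and 78.3% of all protein-coding genes had a window peak, in the same order of libraries.

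The ratio of combination to DMSO peaks was 0.222 in the posterior, 0.467 in the central and 0.619 in the anterior windows. For doxorubicin over DMSO it was 0.593, 0.933 and 0.952, and for OTS186935 over DMSO 0.926, 0.8 and 0.857. Over the whole lists the ratio of combination to DMSO peaks was 0.401. The posterior intervals of the combination and DMSO did not overlap, while the anterior and the central ones did. Genome-wide densities of these lists were 9.64 (9.53 to 9.76) and 24.1 (23.9 to 24.2) per Mb, so the combination was sparser over the genome as well. Those narrow intervals rest on the whole lists and do not show whether the posterior gap is particular to these genes. The difference between the groups itself was not tested with 1 library each. In lists of equal length the posterior windows held 11, 13, 6 and 8 peaks with OTS186935, doxorubicin, the combination and DMSO, and the anterior windows 8, 9, 13 and 9. The combination thus had the fewest posterior peaks and the most anterior peaks of the 4 libraries in lists of equal length, whereas in the full lists it had the fewest of both. With gene bodies alone, DMSO had 12 posterior and 16 anterior peaks, and with a window of 2.5 kb 19 and 20, so which group held the most DMSO peaks depended on the window. The combination had 2 posterior and 11 anterior peaks in gene bodies, and 6 and 12 with the window of 2.5 kb. A peak in an overlap of windows counts in both groups. Gene extents made up 58.6% of the window length and held 54.2%, 60.5%, 71.4% and 59.3% of the peaks with OTS186935, doxorubicin, the combination and DMSO, with the length share inside the interval of the peak share in each library.

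**Figure D5:**
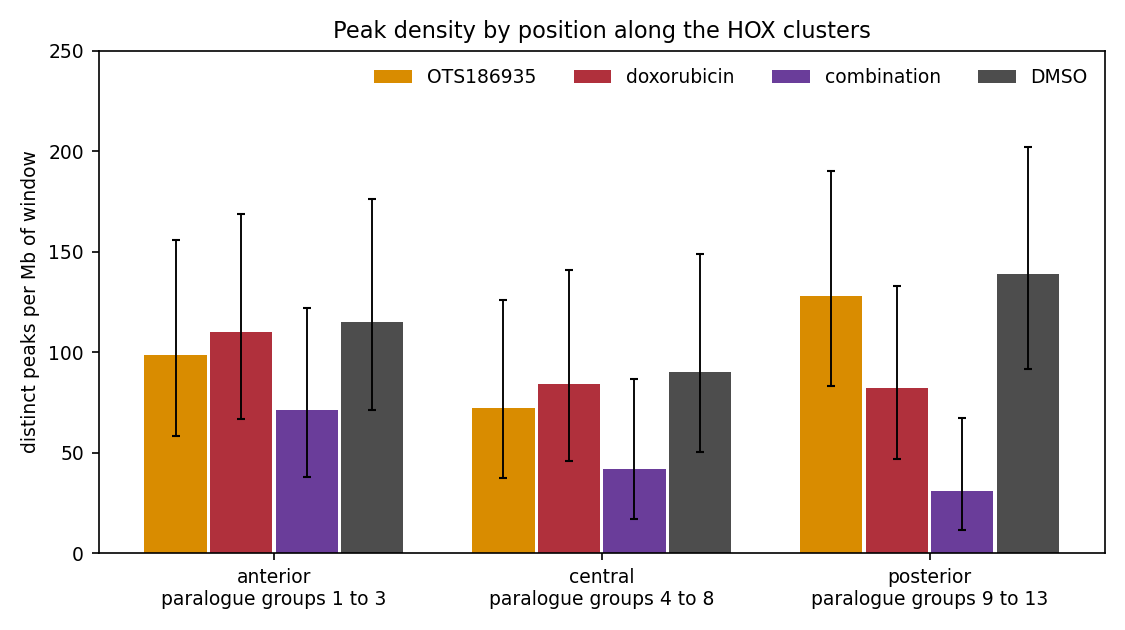
Distinct peaks per Mb of window for the anterior, central and posterior HOX genes of all clusters together, by library, with exact 95% Poisson intervals as whiskers. The posterior bars reach 128 with OTS186935 and 139 with DMSO and are lowest, at 30.8, with the combination, whose anterior bar is at 71.2.

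Other homeobox genes of the same class shared part of the pattern. The 36 listed ANTP-class genes outside the clusters (among them the DLX, MSX, NKX and EVX genes) held 63.7 (47.1 to 84.2), 50.7 (36 to 69.3), 35.1 (23.1 to 51) and 70.2 (52.7 to 91.6) peaks per Mb with OTS186935, doxorubicin, the combination and DMSO. The HOX density was 1.64, 1.85, 1.3 and 1.68 times theirs, with overlapping intervals in every library. The background under their peaks was 5.51, 4.14, 3.81 and 5.93 times the floor at the median, like that of the HOX peaks. The clustered protocadherins, 53 genes that also lie in tandem, held 71.8 (51.7 to 97.1), 59.8 (41.7 to 83.2), 47.9 (31.8 to 69.2) and 85.5 (63.4 to 113) peaks per Mb. The HOX density was 1.46, 1.56, 0.955 and 1.38 times that, again with overlapping intervals in every library. Their background, in contrast, was 2.24, 1.67, 2.18 and 2.33 times the floor. The 40 nearest other protein-coding genes, 5 on either side of each cluster, some of them beyond the 500 kb flanks, had 19.5, 14.6, 7.75 and 22.6 peaks per Mb, on a background of 1.18, 1.14, 1.45 and 1.17 times the floor.

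The clusters also carry microRNA genes, of which 7 lay in the HOX windows, including MIR10A, MIR10B, MIR196A2 and MIR196B, whose products repress HOX transcripts. No peak of any library overlapped a hairpin of the 7. The nearest was MIR7704 beside HOXD1, with peaks at 161 bp with doxorubicin, 93 bp with the combination and 109 bp with DMSO. At the limit of the windows, the peak farthest from a member that still counted lay 4.99 kb from HOXA13, in DMSO, with 5.66-fold, and the nearest one left out 5.27 kb from HOXB13, also in DMSO, with 4.46-fold.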

How the data were processed

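The data are 4 lists of γH2AX ChIP-seq peaks in SK-UT-1, with 1 library per condition. Per the labels' protocols, formaldehyde-fixed chromatin was sonicated, precipitated with an antibody to phosphorylated H2A.X and turned into ThruPLEX libraries. Tools named in the submitters' processing notes are MACS2 (version 2.2.7.1), bedtools (version 2.30.0), Picard (version 2.25.3) and Bowtie2 (version 2.4.2), with the build hg38. Not given in the sources used here: options, filters and any use of an input. Each row holds the authors' deposited fold (a ratio to the local background), −log10 p-value, −log10 q-value, score and summit offset. The score equalled 10 times the −log10 q, truncated, in 99.96% to 100% of rows.

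Rows that overlapped or touched were merged, keeping the highest values, on chromosomes 1 to 22 and X. Genes, positions and promoters came from RefSeq tables of GRCh38.p14, which is hg38. The tables give extents without exons, so exons, introns and untranslated regions were not told apart, and the 19 HOX genes absent from the promoter table have no promoter values. Depth is not given. Summit fragments and local background were solved from the fold and −log10 p by the MACS2 definitions (summit + 1 over background + 1, and a Poisson p), which matched every row within 0.002, and the commonest background was taken as the floor. In 420 to 2100 rows per library a second solution fitted as well. An overlap of 1 bp made a pair of peaks shared.

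With 1 library per condition no test was made. The 5 comparisons were each drug and the combination over DMSO, and the combination over each drug. The members, comparison lists and rules were chosen with earlier results of these data known. Members were named with values when a peak lay within 1 kb of a gene end or in the promoter in at least 2 of the 4 libraries, or under the highest peak of a cluster in a library, and HOXA10, HOXA11, HOXB3, HOXC12, HOXD13 and the positions with all 4 libraries were added after their values were seen. List genes were named by highest fold in DMSO. Some genes that these rules take are not reported here. Alternatives were −log10 q of 5 or more, a common −log10 p limit of 3.08, lists of equal length, windows of 2.5 kb, 10 kb or the gene body alone, unmerged rows, joining within 1 kb and a reciprocal overlap of 50%. Merging, overlap counting and the solving of summits were tested on simulated data. Python 3.11.15, numpy 2.4.6, pandas 2.3.3, scipy 1.17.1 and matplotlib 3.10.9 were used.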

Additional observations from a re-analysis of the deposited data

How the results depend on the processing

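HOX density over that of all gene windows, a ratio added after the data had been seen, stayed between 2.89 and 4.54 in all libraries and alternatives, except that the combination had 0 peaks at −log10 q of 5 or more. Values here run in the order OTS186935, doxorubicin, combination, DMSO unless a library is named. That limit left 7, 4, 0 and 11 HOX peaks (15.2, 8.71, 0 and 23.9 per Mb), of which HOXA held 1, 1, 0 and 1, HOXB 1, 1, 0 and 2, HOXC 4, 2, 0 and 5, and HOXD 1, 0, 0 and 3. It left 11, 3, 0 and 10 genes with a window peak and 1, 1, 0 and 4 with a gene-end peak. DMSO HOX peaks were then overlapped at 27.3% by OTS186935, 27.3% by doxorubicin and 0% by the combination, which also overlapped 0% of those of doxorubicin and of OTS186935. Lists of equal length left 22 HOX peaks for OTS186935, 27 for doxorubicin and 19 for DMSO (47.9, 58.8 and 41.4 per Mb), gene-end peaks at 5, 11 and 4 genes, and window peaks at 20 genes for OTS186935 and 17 for DMSO. By cluster, they left 8, 3, 7 and 4 OTS186935 peaks and 5, 5, 5 and 4 DMSO peaks from HOXA to HOXD, with 5 doxorubicin peaks in HOXB and 7 in HOXD. In gene bodies alone lay 26 OTS186935, 26 doxorubicin and 32 DMSO peaks, at 19 genes for OTS186935, 19 for doxorubicin and 10 for the combination. Gene bodies of HOXA held 6 doxorubicin, 3 combination and 10 DMSO peaks, those of HOXB 4 OTS186935 and 8 DMSO, those of HOXC 4 OTS186935, 4 doxorubicin and 6 DMSO, and those of HOXD 7 doxorubicin. A window of 2.5 kb left 8 OTS186935, 5 doxorubicin and 8 DMSO peaks in HOXC. Other HOX counts by cluster and library, totals and shares stayed within 1.5 times or inside their interval. No paired analysis was possible because each condition had 1 library. HOX summits of 5 to 24 fragments limit what a missing peak shows: a HOX peak not called in a library is not shown to be absent there, and 3 to 16 peaks per cluster carry wide intervals.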

Other observations

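Per Mb of window, genes that act with or on the HOX clusters did not share the HOX peak density. Their windows are longer, at 0.675 to 1.68 Mb for lists of 7 to 25 genes, against 0.459 Mb for the 39 HOX genes. By gene, 80% to 100% of each list had a window peak with DMSO, against 84.6% of the HOX genes and 78.3% of all genes. The 9 TALE cofactors, homeodomain partners of HOX proteins, held 30.8, 24.3, 14.3 and 32.9 peaks per Mb with OTS186935, doxorubicin, the combination and DMSO, near the 26.9, 21.1, 12.8 and 33.3 of all gene windows. PKNOX2 held 16, 12, 6 and 17 peaks in that order, the highest at 7.41-fold, 6.41-fold, 5.55-fold and 7.52-fold. The 25 Polycomb genes held 26.1, 21.4, 10.7 and 35 peaks per Mb. The highest peak of each library at PHC3, a subunit of the repressive complex, had 6.06-fold, 3.6-fold, 4.84-fold and 7.74-fold. The 9 trithorax genes held 26.7, 17.8, 11.8 and 35.5 per Mb. At KMT2C, a lysine methyltransferase, the highest peak of each library had 6.06-fold, 5.76-fold, 4.9-fold and 7.38-fold. Positions of the peaks of these listed genes were not matched between libraries. The list of the CDX genes, retinoic acid receptors and CTCF held 17.7, 12.7, 7.85 and 20.6 per Mb, with CDX4, a HOX inducer, at 5.06-fold, 4.16-fold, 6.78-fold and 9.47-fold. The background under the peaks of these lists was 1.35 to 3.28 times the floor at the median.

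As a description of the labelled cell type, 8 smooth muscle genes held 38.8, 38.8, 20.9 and 46.3 peaks per Mb and 8 markers of epithelial, blood and endothelial cells 39.5, 18.7, 12.5 and 39.5 per Mb, with overlapping intervals in every library. At DES, the muscle filament gene, the highest peak had 5.8-fold with OTS186935, 4.1-fold with doxorubicin, 4.93-fold with the combination and 7.15-fold with DMSO, with positions not matched between libraries.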
